A study of Mus musculus with 24 samples.

Results

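The genes described here take up glucose, carry it through glycolysis to lactate, export the lactate, or decide whether pyruvate enters the mitochondria. They are 32 genes listed by symbol: the glucose transporters Slc2a1 and Slc2a3, the enzymes from Hk1 to Ldhb, the lactate carriers Slc16a1 and Slc16a3, the transcription factor gene Hif1a, the kinases Pdk1, Pdk2 and Pdk3, and the pyruvate dehydrogenase subunits Pdha1 and Pdhb. Of the 17872 genes on the array, 30 of these 32 were matched, through 42 probes, and Gpi1 and Ldhb were not. Gapdh, Ldha and Pfkfb4 were found under the older names Gapd, Ldh1 and C230090D14. A probe was kept if its detection p, the chance that its signal is background, was at most 0.02 on at least 1 array. That left 25 of the genes, through 35 probes, among 10419 genes tested. Bpgm, Pdk2, Pfkfb3, Pgk1 and Slc16a1 were not detected on any array, and the Pgk1 probe starts at base 20 of its transcript. Each gene was read at its brightest kept probe, and other probes are mentioned where they differ.

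The study asked what BAF180, the product of Pbrm1 and a subunit of the PBAF chromatin remodelling complex, does in T helper cells. RNA from 24 samples was measured on arrays, 3 (replicates A, B and C) for each of 4 cell states in wild-type (WT) and BAF180-deficient (KO) cells. All cells came from the spleens and lymph nodes of mice of 4 to 6 weeks and were purified as CD4+CD62L+ cells to 95%. The labels give the strain as Balb/c, while the study's methods describe a mixed background for the floxed line. In KO mice the floxed Pbrm1 alleles were removed by a Cre under the CD4 promoter, which acts late in thymocyte development, so the mature T cells lacked the gene while their precursors had carried it. Resting Naive cells were used as purified. Stimulated Naive cells had spent 24 h on plates coated with antibodies to CD3 (1 µg/ml) and CD28 (2 µg/ml). Resting Th2 cells had been activated in the same way with IL-4 at 10 ng/ml and anti-IFN-γ at 10 µg/ml, with IL-2 at 100 U/ml added after 24 h. Stimulated Th2 cells were resting Th2 cells given 50 ng/ml of PMA with 500 ng/ml of ionomycin during the last 1.5 h. A Naive and a Th2 stimulation therefore differ in agent and in duration.

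Resting T cells use little glucose. Signals through the T cell receptor and CD28 raise glucose uptake and switch the cells to aerobic glycolysis, in which pyruvate is turned to lactate even where oxygen is present, and MYC and HIF-1α are the best known transcription factors of this switch. Several steps have alternative isozymes from different genes, and pyruvate dehydrogenase kinases hold back the entry of pyruvate into the tricarboxylic acid cycle.

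Promoter sequences are shown for 5 genes that carry the account below: the uptake step (Slc2a1), the first enzyme (Hk2), the last enzyme (Ldha) and the steps with the next largest rises on activation (Tpi1 and Pgam1). Each is the 250 bases before the RefSeq transcript start in GRCm38.p6, read on the strand of the gene. Capitals mark ACGTG on either strand, the core shared by the HIF response element and by the E-box CACGTG that MYC binds. Because a CACGTG reads the same on both strands, it counts as 2 overlapping matches. The Slc2a1 window (chr4:119108495-119108744, plus strand) has its match 36 bases before the start. The Hk2 window (chr6:82774455-82774704, minus strand) has 2. The Ldha window shown (chr7:46845554-46845803, plus strand) has 5, including CACGTG in 2 places. A second Ldha window (chr7:46846832-46847081, plus strand) has none and is not shown. The Pgam1 window (chr19:41911621-41911870, plus strand) has 1, and the Tpi1 window (chr6:124814159-124814408, minus strand) has none.
Slc2a1: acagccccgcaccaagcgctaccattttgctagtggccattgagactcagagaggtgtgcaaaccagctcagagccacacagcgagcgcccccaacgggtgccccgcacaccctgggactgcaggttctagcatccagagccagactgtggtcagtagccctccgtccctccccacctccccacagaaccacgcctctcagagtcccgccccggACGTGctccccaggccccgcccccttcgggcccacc
Hk2: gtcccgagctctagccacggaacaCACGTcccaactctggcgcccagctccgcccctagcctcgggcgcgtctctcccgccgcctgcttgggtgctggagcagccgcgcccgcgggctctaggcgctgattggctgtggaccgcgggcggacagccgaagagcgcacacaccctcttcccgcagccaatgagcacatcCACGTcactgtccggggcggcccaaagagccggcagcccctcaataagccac
Ldha: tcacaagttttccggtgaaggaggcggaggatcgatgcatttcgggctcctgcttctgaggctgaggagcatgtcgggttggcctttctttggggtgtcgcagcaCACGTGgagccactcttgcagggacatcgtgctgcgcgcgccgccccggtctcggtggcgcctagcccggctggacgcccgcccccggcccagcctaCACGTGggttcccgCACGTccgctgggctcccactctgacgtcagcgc
Pgam1: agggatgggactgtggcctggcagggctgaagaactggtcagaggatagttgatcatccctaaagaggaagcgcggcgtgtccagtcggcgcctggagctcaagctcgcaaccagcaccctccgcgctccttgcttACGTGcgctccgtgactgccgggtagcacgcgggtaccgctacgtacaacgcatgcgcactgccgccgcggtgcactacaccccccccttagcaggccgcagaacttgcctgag
Tpi1: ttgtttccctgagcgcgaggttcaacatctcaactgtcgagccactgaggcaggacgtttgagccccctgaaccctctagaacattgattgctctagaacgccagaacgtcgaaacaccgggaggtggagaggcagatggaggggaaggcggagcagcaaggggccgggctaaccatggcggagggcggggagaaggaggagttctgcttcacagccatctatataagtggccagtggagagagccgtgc
RefSeq windows were found for 31 of the 32 genes (45 windows, all but Slc2a3). ACGTG occurred in 19 of these 45 windows (42.2%) and in 16.6% of all 32817 mouse windows of this length. The windows also differed in base composition, and the median GC content was 60.4% in these windows and 52.4% in all. Among windows of at least 60% GC, the motif was in 16 of 24 windows of these genes (66.7%) and in 23% of all. Windows of one gene can overlap, and 2 of the 3 Aldoa windows hold the same match, so the windows are not independent. Of the 14 genes that rose on stimulation of WT Naive cells (below) 9 had a match, and of the other 10 tested genes with a window 3 had one. A match is a description of letters, and no binding was measured.

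Across the 24 arrays 8047 to 10689 probes were detected, and arrays of one group correlated at 0.949 to 0.989. All values below are normalized log2 levels at a single probe; they order the samples for that probe and do not rank one gene against another. Differences are log2 differences from limma with their standard error (SE), called at a Benjamini-Hochberg adjusted p below 0.05 over all kept probes unless another rule is named. All 6 CD4 T cell markers were detected on every array. The 6 Th2 markers summed to 391 to 560 units of normalized intensity on the resting and 866 to 2746 on the stimulated Naive arrays. Sums were 1290 to 2463 in resting and 18754 to 21141 in stimulated Th2 cells. These sums thus did not separate resting Th2 from stimulated Naive cells. Of the 6 single markers, 1 was called higher and 2 lower in resting Th2 cells in each genotype. These markers ranged from -1.42 to 0.93 in WT and -1.77 to 1.09 in KO cells. Of all genes 11.4% were called higher and 12.1% lower in WT, and 10.9% and 11.1% in KO cells. The 4 activation markers summed to 3175 to 5107 in resting and 2994 to 3960 in stimulated Naive cells, so their sum did not rise there. The single markers moved both ways on stimulation of Naive cells. In WT cells 2 were called higher and 1 lower (-1.43 to 3.04), where 23.3% of all genes were higher and 21.9% lower. In KO cells 2 were higher and 2 lower (-1.61 to 2.98), where 22.1% of all genes were higher and 21.3% lower. In Th2 cells they summed to 1657 to 2337 at rest and 3459 to 4433 after stimulation. The 6 resting Naive arrays also carried RNA of other cells: 9 of 11 myeloid markers were detected there, summing to 2507 to 7202, against 2 to 4 detected and sums of 230 to 384 on the other 18 arrays. Erythroid and platelet markers summed to 476 to 16447 there and to 158 to 439 elsewhere, B cell markers to 723 to 1640 and to 156 to 593, and CD8 and NK cell markers to 432 to 858 and to 182 to 470. Their part in the differences from resting Naive cells was not tested. The legend of the study speaks of 3 pairs of mice but the labels do not say what the letters A, B and C are, so p-values measure the spread between these samples, which may in part be technical. Pbrm1, the targeted gene, was lower in KO arrays of each state, by 1.01 to 1.86 on the log2 scale.

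Activation of Naive cells raised glycolysis genes at nearly every measured step from uptake to lactate. In WT cells 17 of the 25 tested genes were called between stimulated and resting Naive cells, 14 higher and 3 lower, where 45.1% of all genes were called, 23.3% higher and 21.9% lower. Their median difference was 1.28, against -0.01 over all genes. The 14 that rose were Slc2a1, Hk2, Pfkl, Pfkp, Aldoa, Tpi1, Gapdh, Pgam1, Eno1, Pkm2, Ldha, Hif1a, Pdk3 and Pdhb, and the 3 that fell were Hk3, Pfkfb4 and Pdk1. In bulk RNA a lower level cannot be told apart from fewer cells of the type that makes the transcript. KO cells gave 15 calls, 12 higher and 3 lower, where 43.4% of all genes were called (22.1% higher, 21.3% lower), and 14 genes were called in both genotypes, all in the same direction.

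**Figure D1:**
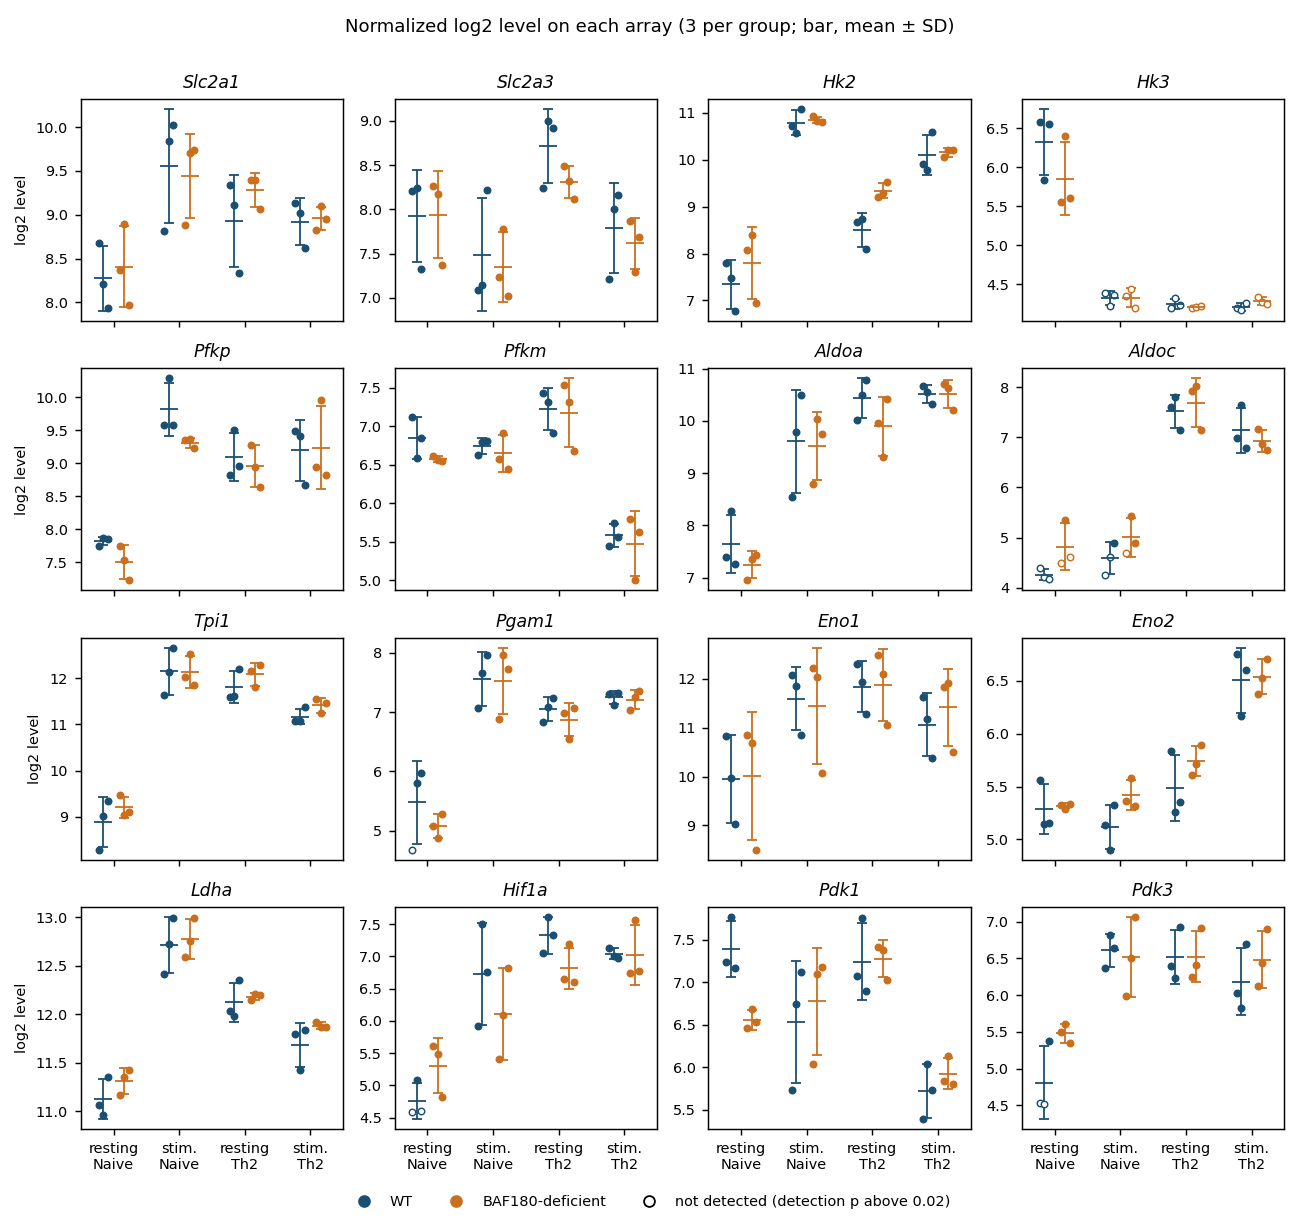
Normalized log2 level of 16 of the genes on each of the 24 arrays (vertical axis, one scale per panel, not starting at 0) in the 4 cell states, WT in blue and BAF180-deficient in orange, with the mean ± SD of 3 arrays as a bar and open circles where the probe was not detected. Hk2 sat between 10.56 and 11.07 on the 6 stimulated Naive arrays against 6.77 to 8.40 on the 6 resting Naive arrays, and Aldoc was high in both Th2 states only.

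Slc2a1 encodes GLUT1, the main glucose transporter of activated T cells. Its levels were 8.67, 8.21 and 7.94 (A, B, C) in resting and 8.82, 9.84 and 10.02 in stimulated WT Naive cells, a difference of 1.28 (SE 0.32, adjusted p = 0.00228), which is 2.43-fold. The groups did not overlap, although stimulated replicate A stood only just above resting replicate A. In KO cells Slc2a1 differed by 1.04 (adjusted p = 0.0114). That call was lost without KO resting Naive C (0.82, adjusted p = 0.0665), without KO stimulated Naive B (0.91, 0.0538) and without KO stimulated Naive C (0.89, 0.0581). Slc2a3, which encodes the high-affinity neuronal and leukocyte transporter GLUT3, did not pass the test in either genotype (WT -0.43, 95% interval -1.14 to 0.27).

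Hk2, the inducible hexokinase that traps glucose in the cell as glucose-6-phosphate, had the largest rise of these genes. WT levels were 7.79, 7.47 and 6.77 at rest and 10.71, 10.56 and 11.07 after stimulation. The difference was 3.44 (SE 0.30, adjusted p = 1.36e-08), or 10.8-fold, and no stimulated array came near a resting one. In KO cells the levels went from 8.08, 8.40 and 6.94 to 10.93, 10.82 and 10.80, a rise of 3.04 with no overlap. Hk1, the constitutive hexokinase, was faint: it was detected on 17 of 24 arrays and differed by 0.27 in WT and 0.47 in KO cells, neither called without a replicate block. With the replicate letter as a block the KO difference of Hk1 was called (adjusted p = 0.0206).

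Hk3, the hexokinase best known from myeloid cells, went the other way. It was detected on the 6 resting Naive arrays, at 6.58, 5.84 and 6.56 in WT and 5.56, 6.40 and 5.60 in KO cells, and on none of the other 18, where it read 4.16 to 4.44. Since it had only a bound after stimulation, it was at least 3.19-fold lower in stimulated than in resting WT Naive cells (adjusted p = 3.39e-08) and at least 2.33-fold lower in KO cells. Such a bound sets the mean of the bright group against the lowest signal still well above background. Hk3 was present where the myeloid markers given above were present. The part of those cells in its level was not tested.

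Phosphofructokinase, the main control point of glycolysis, has 3 genes, and they did not move together. Pfkp, the platelet form, had WT levels of 7.74, 7.86 and 7.85 at rest and 9.59, 10.29 and 9.58 after stimulation. It rose by 2.00 (SE 0.28, adjusted p = 6.3e-06), with the groups far apart. Pfkl, the liver form, rose by 1.62 in WT (adjusted p = 1.27e-05) and 1.82 in KO cells. Its second probe, detected on 7 arrays, differed by 0.34 in WT cells and was not called (adjusted p = 0.078). Pfkm, the muscle form, was detected on all arrays and differed by -0.11 (95% interval -0.56 to 0.34). Pfkfb4 makes and breaks down fructose-2,6-bisphosphate, an activator of phosphofructokinase. It fell in both genotypes, by 0.86 in WT and 0.90 in KO cells, and the WT call was lost with median scaling of the arrays (-0.56, adjusted p = 0.051).

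At the 3-carbon steps, Tpi1, triosephosphate isomerase, had WT levels of 8.28, 9.0 and 9.35 at rest and 11.65, 12.14 and 12.67 after stimulation. It rose by 3.27 (SE 0.26, adjusted p = 4.1e-09), or 9.67-fold, without overlap. Its other probes rose by 1.54 and 3.37, so the direction held at all 3 probes but the size did not. In KO cells Tpi1 rose by 2.93. Aldoa, the aldolase of muscle and most dividing cells, rose by 1.96 in WT (SE 0.40, adjusted p = 0.000439) and 2.28 in KO cells. Aldoc, the brain aldolase, was detected on no resting WT array and 1 of 3 stimulated WT arrays, and was not called (0.32). Gapdh, often used as a reference gene, rose by 1.66 in WT and 1.73 in KO cells, with SE 0.16.

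Lower glycolysis rose as well. Pgam1, phosphoglycerate mutase, had WT levels of 4.68, 5.80 and 5.97 at rest, the first of them not detected, and 7.07, 7.66 and 7.97 after stimulation. It rose by 2.08 (SE 0.29, adjusted p = 7.53e-06), or 4.23-fold, without overlap, and by 2.45 in KO cells. Pkm2, pyruvate kinase of the M type, rose by 1.80 in WT and 1.43 in KO cells. Ldha, which regenerates NAD+ by turning pyruvate to lactate, had WT levels of 11.06, 10.96 and 11.35 at rest and 12.42, 12.73 and 13.00 after stimulation. Ldha rose by 1.59 (SE 0.16, adjusted p = 8.01e-08), and by 1.47 in KO cells. Slc16a3, the lactate exporter MCT4, was detected on only 2 arrays, both KO stimulated Naive, and no difference was called.

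The enolases differed in pattern. Eno1, the ubiquitous form, rose by 1.65 in WT cells (adjusted p = 0.0433), while KO cells gave 1.43 (adjusted p = 0.0818). Its error was wide because the letters differed: replicate C was the lowest of its group in all 8 groups and A the highest in 7, with A above C by 1.02 to 2.35. With the replicate letter as a block, Eno1 was also called in KO cells (adjusted p = 7.6e-05). Without the block the WT call was lost when WT resting Naive B or C or WT stimulated Naive A or B was left out (1.20 to 1.66, adjusted p = 0.0827 to 0.181). It was also lost with Z-score normalization (1.34, adjusted p = 0.169), with no detection filter (adjusted p = 0.1) and with no moderation of the variances (adjusted p = 0.0766). Eno2, the neuronal enolase, was not called. Eno3, the muscle enolase, fell by 1.07 in KO cells (adjusted p = 0.00606) and gave -0.40 in WT cells, and the KO call was lost without KO stimulated Naive C (-0.79, adjusted p = 0.0539).

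At the entry to the mitochondria the kinases parted. Pdk3 rose by 1.80 in WT cells (adjusted p = 4.17e-05), where it was detected on 1 of 3 resting arrays, and by 1.03 in KO cells, a call lost without KO stimulated Naive C (0.76, adjusted p = 0.0603). Pdk1, a kinase that HIF-1α is known to induce, fell by 0.86 in WT cells (adjusted p = 0.0334) and differed by 0.22 in KO cells. The Pdk1 call did not survive Z-score normalization (-0.47, adjusted p = 0.194), median scaling (-0.39, 0.298), no detection filter (0.0731), no moderation (0.0564), or leaving out WT resting Naive B (-0.67, 0.142) or WT stimulated Naive A (-0.46, 0.245). Pdhb, the beta subunit of pyruvate dehydrogenase, rose by 1.14 in WT and 1.42 in KO cells. Its WT call was lost without WT resting Naive A (0.62, adjusted p = 0.0927), an array where it was not detected, and without WT stimulated Naive C (0.96, 0.0538). Pdha1, the alpha subunit, was not called (0.12 in WT, 0.13 in KO cells). Hif1a rose by 1.97 in WT cells (SE 0.35, adjusted p = 0.000113) from levels of 4.59, 5.08 and 4.61, of which only the second was detected, to 5.93, 7.50 and 6.76. In KO cells it went from 5.61, 5.49 and 4.83 to 5.40, 6.08 and 6.82, a difference of 0.80 (adjusted p = 0.0771) with overlapping groups, and it was called with the block (0.038).

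**Figure D2:**
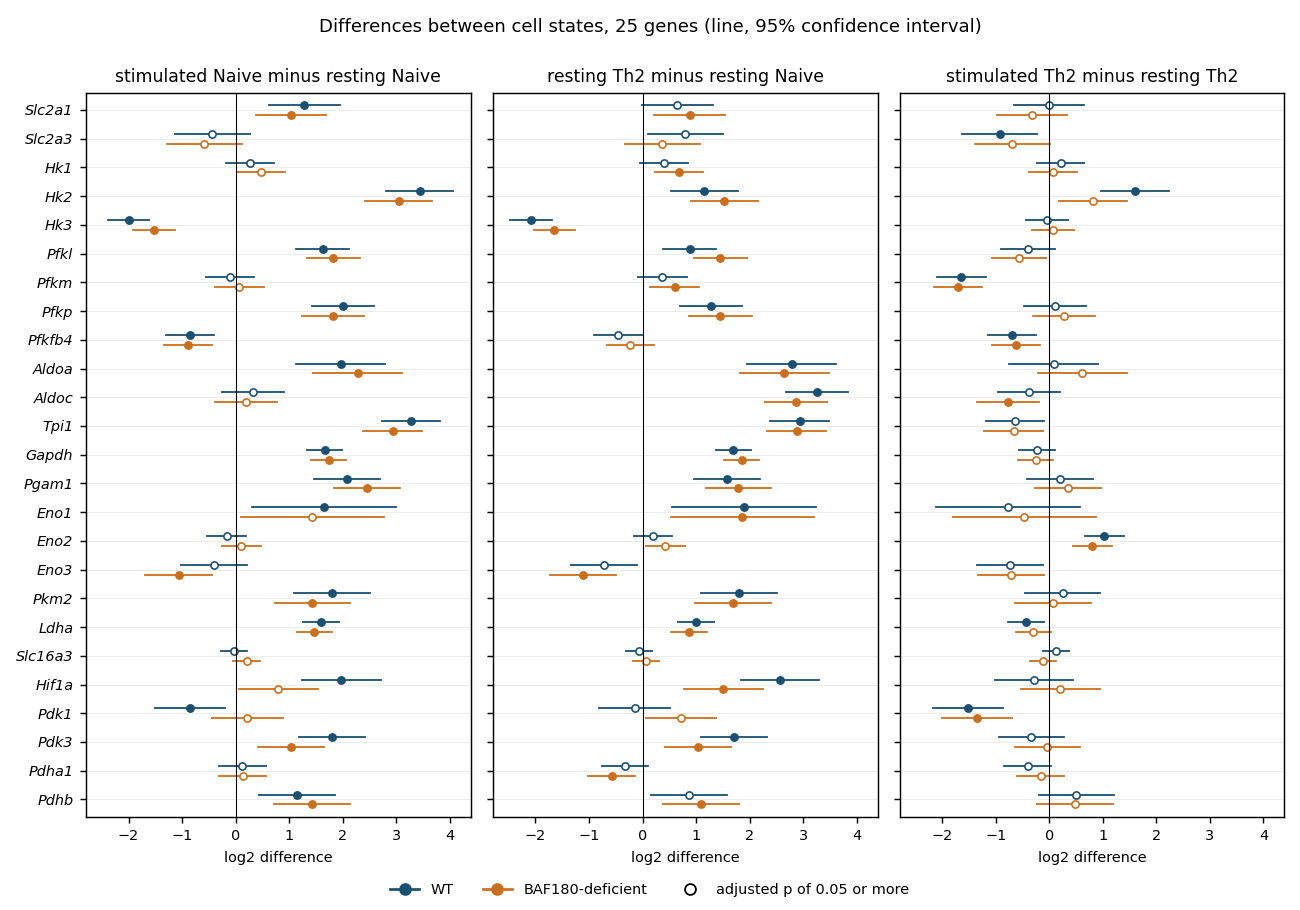
Log2 difference with its 95% confidence interval (horizontal axis) for the 25 tested genes in 3 comparisons of cell states, WT in blue and BAF180-deficient in orange, filled where the adjusted p was below 0.05. Most filled points lie right of 0 in the panels against resting Naive cells, up to 3.44 for Hk2, while in stimulated against resting Th2 cells 2 WT points are filled on the right and 5 on the left.

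Resting Th2 cells kept most of these genes above the resting Naive level and added Aldoc. In WT cells 14 of 25 genes were called between resting Th2 and resting Naive cells, 13 higher and 1 lower, where 35.5% of all genes were called, 17.9% higher and 17.6% lower. The median difference was 0.88, against 0.00 over all genes. Of the 15 genes called above resting Naive cells in either state, 12 were called in both stimulated Naive and resting Th2 cells, Slc2a1 and Pdhb in stimulated Naive cells only, and Aldoc in resting Th2 cells only. Both comparisons use the same resting Naive arrays. KO cells gave 20 calls, 17 higher and 3 lower, where 35.7% of all genes were called (18.2% higher, 17.5% lower). The 14 WT calls were all among them, in the same direction.

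Aldoc was not detected on the 3 WT resting Naive arrays (4.39, 4.22 and 4.18) and read 7.60, 7.80 and 7.15 in WT resting Th2 cells. It was at least 6.31-fold higher in resting Th2 cells (adjusted p = 1.56e-08). KO Th2 cells gave 7.92, 8.02 and 7.14. Aldoa had WT levels of 7.39, 8.28 and 7.27 in resting Naive and 10.02, 10.50 and 10.77 in resting Th2 cells, a rise of 2.79 (SE 0.40, adjusted p = 1.7e-05), or 6.9-fold. Both aldolases were therefore higher in resting Th2 than in resting Naive cells on every WT array.

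Tpi1 read 11.60, 11.63 and 12.21 in WT resting Th2 cells, 2.93 above resting Naive cells (SE 0.26, adjusted p = 3.47e-08). Hif1a read 7.05, 7.61 and 7.32, a rise of 2.57 (SE 0.35, adjusted p = 9.64e-06), or 5.92-fold, from a level detected on 1 of 3 resting Naive arrays. Neither gene overlapped between the groups. Hk2 stood between its Naive levels, at 8.67, 8.74 and 8.09, and was 1.15 above resting Naive cells (adjusted p = 0.00539). The other WT rises were Pkm2 by 1.80, Pdk3 by 1.71, Gapdh by 1.69, Pgam1 by 1.57, Pfkp by 1.27, Ldha by 1.00, Pfkl by 0.88 and Eno1 by 1.90. Hk3 was at least 3.31-fold lower, beside the same marker difference as above.

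In KO cells Hk1 (0.68), Pfkm (0.60), Slc2a1 (0.88) and Pdhb (1.10) were also called higher and Eno3 (-1.11) and Pdha1 (-0.57) lower. Each of these calls was lost when 1 array was left out: Hk1 without KO resting Th2 C or KO resting Naive A, Eno3 without KO resting Th2 C (-0.82, adjusted p = 0.0554), and Pdhb without KO resting Th2 A or C or KO resting Naive A (0.98 to 1.03, adjusted p = 0.052 to 0.0622). Slc2a1 was lost without KO resting Th2 A or B or KO resting Naive A or C (0.66 to 0.86). Pfkm was lost without any 1 of 5 arrays, and Pdha1 without KO resting Th2 A or C or KO resting Naive A or B. Median scaling took Hk1 to 0.29 (adjusted p = 0.269) and Pdha1 to -0.012 (0.968), and the mean over the probes of the gene took Pfkm to 0.25 (0.188). Pfkm, Pdha1 and Slc2a1 also missed the threshold with no detection filter (adjusted p = 0.0649, 0.066 and 0.0739) and with no moderation (0.0515, 0.0523 and 0.0589).

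With the block, Pfkfb4 (-0.46, adjusted p = 0.0444), Eno3 (-0.72, 0.0119) and Pdhb (0.87, 0.017) were called in WT cells and Pdk1 in KO cells (adjusted p = 0.0333). Among the WT calls, Eno1 was lost with Z-score normalization (1.58, adjusted p = 0.117), no detection filter (0.0677), no moderation (0.0538) and without WT resting Th2 A or B or WT resting Naive B or C (1.44 to 1.90, 0.058 to 0.119), and Ldha with Z-score normalization (0.58, 0.0807). In KO cells Z-score normalization ended the calls of Ldha (0.09, adjusted p = 0.805), Gapdh (0.90, 0.0763), Eno1 (1.33, 0.175) and Pdha1 (-0.45, 0.0572). The KO call of Eno1, at 1.87, was also lost with no detection filter (adjusted p = 0.0697), no moderation (0.0563) and without KO resting Naive C or KO resting Th2 A or B (1.11 to 1.76, 0.0782 to 0.189). The Pdk3 call was lost without KO resting Th2 C (0.84, adjusted p = 0.0587).

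Brief stimulation of Th2 cells did not repeat the rise seen in Naive cells. In WT cells 7 of 25 genes were called, 2 higher and 5 lower, where 28.4% of all genes were called, 12.5% higher and 15.9% lower. The median difference was -0.29, against -0.01 over all genes. Hk2 and Eno2 were higher and Slc2a3, Pfkm, Pfkfb4, Ldha and Pdk1 lower. In KO cells 5 were called, 1 higher and 4 lower, where 27% of all genes were called (11.7% higher, 15.4% lower), and 4 genes were called in both genotypes in the same direction: Eno2, Pfkm, Pfkfb4 and Pdk1. Of the 14 genes that rose in WT Naive cells, 2 were called here, Hk2 upward and Ldha downward.

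Hk2 went from 8.67, 8.74 and 8.09 to 9.92, 9.78 and 10.59 in WT Th2 cells, a rise of 1.60 (SE 0.30, adjusted p = 0.000356), or 3.03-fold, without overlap. In KO cells it went from 9.21, 9.28 and 9.52 to 10.05, 10.19 and 10.21, also without overlap, and the difference of 0.81 missed the threshold (adjusted p = 0.0523). The difference between these responses was -0.79 (95% interval -1.67 to 0.10) and was not called.

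Pfkm fell from 7.43, 7.32 and 6.91 to 5.44, 5.74 and 5.56 in WT cells, by 1.64 (SE 0.22, adjusted p = 7.43e-06), and by 1.70 in KO cells. A second 3′ probe fell by 1.34 in WT cells. A probe at base 428 of the transcript gave -0.11 (adjusted p = 0.796), so the fall was seen at the 3′ probes only. Pdk1 fell from 7.08, 7.75 and 6.89 to 5.39, 6.04 and 5.73 in WT cells, by 1.52 (SE 0.32, adjusted p = 0.000951), and by 1.35 in KO cells. Eno2 rose from 5.84, 5.25 and 5.36 to 6.75, 6.16 and 6.61 in WT cells, by 1.03 (SE 0.17, adjusted p = 0.000123), and by 0.80 in KO cells. The stimulated and resting arrays of each genotype did not overlap for Pfkm, Pdk1 or Eno2.

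The remaining calls were smaller. Slc2a3 fell by 0.92 in WT cells (adjusted p = 0.0461), from 8.24, 9.0 and 8.92 to 7.21, 8.01 and 8.16. Pfkfb4 fell by 0.69 in WT and 0.62 in KO cells, Ldha by 0.44 in WT cells (adjusted p = 0.045) and Aldoc by 0.77 in KO cells. The Slc2a3 call was lost without WT stimulated Th2 A or B or WT resting Th2 B or C (-1.03 to -0.63, adjusted p = 0.0585 to 0.242), and the Ldha call without WT stimulated Th2 A or B or WT resting Th2 A or C (-0.49 to -0.31, 0.056 to 0.233). Both were also lost with Z-score normalization (0.0527 and 0.116), median scaling (0.15 and 0.693) and no detection filter (0.105 and 0.0608), Slc2a3 with no moderation (0.0788), and Ldha when probes had to be detected on all arrays of a group (0.0504). The Pfkfb4 call was lost without WT stimulated Th2 A or C or WT resting Th2 B (-0.66 to -0.43) and, in KO cells, without any 1 of 5 arrays, as was that of Aldoc. In KO cells both were also lost with no detection filter (adjusted p = 0.0697 for Pfkfb4 and 0.0997 for Aldoc) and with no moderation (0.054 and 0.0763). With the block, Eno1 (adjusted p = 0.0196) and Eno3 (0.0124) were called lower in WT cells and Eno3 in KO cells (0.0159).

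Set directly against stimulated Naive cells, resting Th2 cells differed at few of these genes. In WT cells 5 of 25 were called, 2 higher and 3 lower, where 23.6% of all genes were called (11.4% higher, 12.1% lower). Aldoc was higher by 2.93 (SE 0.28, adjusted p = 1.94e-07), from 4.26, 4.61 and 4.90 in stimulated Naive cells, of which only the last was detected. Slc2a3 was higher by 1.23 (SE 0.34, adjusted p = 0.0107), from 7.09, 7.15 and 8.22. Hk2 was lower by 2.28, as log2 -2.28 (SE 0.30, adjusted p = 1.11e-05), Pfkl gave -0.75 (SE 0.24, adjusted p = 0.0286) and Ldha -0.59. Pfkl levels were 8.78, 9.57 and 9.75 in stimulated Naive and 8.56, 8.63 and 8.68 in resting Th2 cells, so that the lowest stimulated Naive array stood close to the Th2 arrays. None of these 5 genes overlapped between the groups.

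KO cells gave 6 calls, 3 higher and 3 lower, where 22% of all genes were called (10.9% higher, 11.1% lower). Aldoc (2.68), Slc2a3 (0.96), Hk2 (-1.51) and Ldha (-0.60) were called as in WT cells, and Pfkfb4 (0.67) and Pdha1 (-0.70) only here. The Pfkl call was lost with no detection filter (adjusted p = 0.0608) and without any WT resting Th2 array or WT stimulated Naive B or C (-0.78 to -0.55). The WT call of Slc2a3 was lost without WT resting Th2 B or WT stimulated Naive A or B (1.03 to 1.09, adjusted p = 0.0532 to 0.0618). Its KO call was lost with the block (0.0511), Z-score normalization (0.0535), no background correction (0.0501), no detection filter (0.11), no moderation (0.084) and without any 1 of 5 arrays. Ldha was lost with Z-score normalization (adjusted p = 0.249 in WT, 0.0889 in KO), in WT cells without stimulated Naive C (-0.45, 0.0692), and in KO cells without stimulated Naive C (-0.49, 0.0593) and with median scaling (0.0685). Pfkfb4 was lost with no detection filter (adjusted p = 0.0564) and without any 1 of 4 arrays, and Pdha1 without any 1 of 3. With the block, Pfkp was called lower in WT cells (adjusted p = 0.022).

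Several steps have paired isozymes, and the difference of their responses on the same arrays was tested directly. For 8 pairs and 4 comparisons (32 tests), the log2 ratio of the pair was compared between states by a two-sided exact permutation test within genotype, over 6 arrays against 6. It has 400 arrangements and a smallest possible p of 0.005, which became 0.0114 after Benjamini-Hochberg adjustment over the 32 tests. In 22 tests the adjusted p was below 0.05, and in 16 with Z-score normalization. Within 1 genotype alone the test cannot go below 0.1.

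In stimulated against resting Naive cells, Slc2a1 moved 1.67 further up than Slc2a3 (1.72 in WT, 1.62 in KO cells, adjusted exact p = 0.0114). Hk2 moved 2.87 further than Hk1 (adjusted exact p = 0.0114), with Hk1 undetected on 7 of these 12 arrays. Pfkm responded 1.74 less than Pfkl (log2 -1.74) and Eno3 2.28 less than Eno1 (log2 -2.28), each at an adjusted exact p of 0.0114. With Z-scores the Eno3 to Eno1 value passed no longer (-1.56, adjusted exact p = 0.0565). Pfkp and Pfkl moved alike to within the error (0.18, adjusted exact p = 0.427). Pdk3 moved 1.74 further than Pdk1 (adjusted exact p = 0.0114), by 2.66 in WT and 0.82 in KO cells. Stimulated Naive cells thus held more Slc2a1, Hk2 and Pfkl relative to their partners than resting ones.

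In stimulated against resting Th2 cells Hk2 again moved further than Hk1 (1.07, adjusted exact p = 0.0114) and Pfkm less than Pfkl (-1.19, adjusted exact p = 0.0114). Eno2 moved 1.53 further than Eno1 (adjusted exact p = 0.0267), opposite to its place in Naive cells, where it moved less (-1.57, adjusted exact p = 0.0436). Both Eno2 to Eno1 values depended on the normalization and passed no longer with Z-scores (0.93 and -1.18, adjusted exact p = 0.193 and 0.167). The Naive value was also lost without any 1 of 8 arrays (-1.75 to -1.19, adjusted exact p = 0.0533 to 0.0974), moving most without KO resting Naive C (-1.19), and the Th2 value without KO resting Th2 A (1.35, 0.0505). Pdk3 moved 1.25 further than Pdk1 and Pfkp 0.67 further than Pfkl (adjusted exact p = 0.02 each). Against stimulated Naive cells, resting Th2 cells had lower Slc2a1 relative to Slc2a3 (-1.49), lower Hk2 relative to Hk1 (-2.07) and higher Aldoc relative to Aldoa (2.21), each at an adjusted exact p of 0.0114. Of the tests not described here, single arrays ended the calls of Aldoc against Aldoa in stimulated against resting Th2 cells (9 arrays) and, in resting Th2 against resting Naive cells, of Hk2 against Hk1 (8 arrays), Eno2 against Eno1 (1 array) and Pdk3 against Pdk1 (10 arrays).

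**Figure D3:**
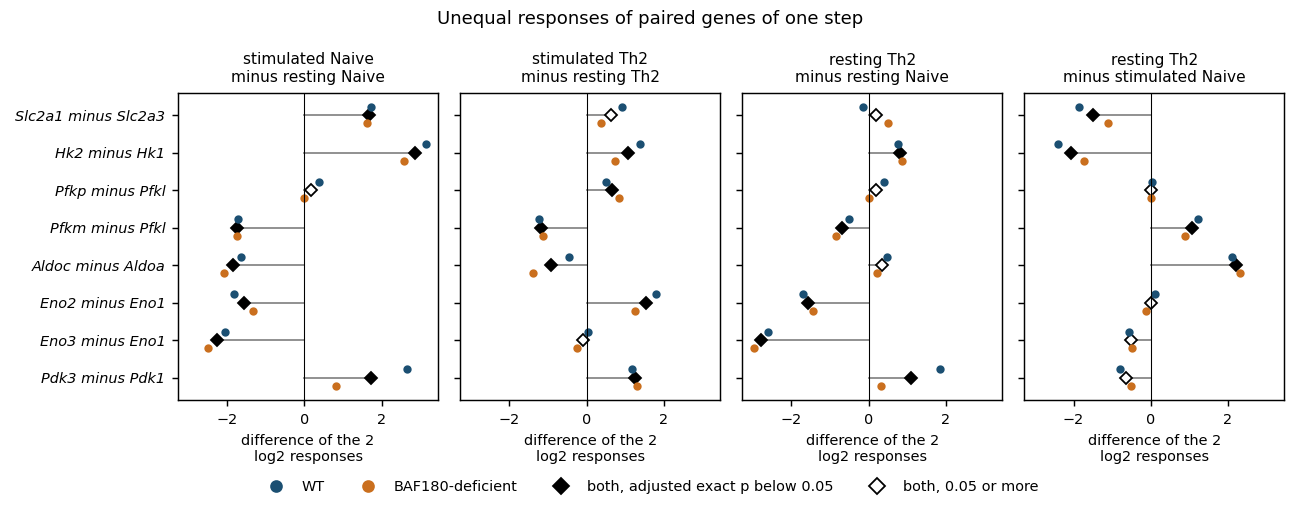
Difference of the log2 responses of 2 genes of one step (horizontal axis) in 4 comparisons of cell states, WT in blue, BAF180-deficient in orange and both together as a diamond, filled where the adjusted exact p was below 0.05. Hk2 gained on Hk1 by 2.87 on stimulation of Naive cells and was 2.07 lower relative to it in resting Th2 than in stimulated Naive cells, and the diamond of the Pfkp and Pfkl pair stayed between 0.02 and 0.67.

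Loss of BAF180 moved none of the 25 genes past the threshold. By the 4 criteria of the study's methods (a Z-ratio beyond 1.5, a false discovery rate below 0.3, p below 0.05 and a mean signal above 0, here with p-values from limma), 0 of 25 genes were called in each of the 4 states. Here the Z-ratio came from normalized log2 differences in place of Z-scores, and the mean signal was not checked separately. Over all genes these criteria called 79 (0.758%) in resting Naive, 12 (0.115%) in stimulated Naive, 11 (0.106%) in resting Th2 and 10 (0.096%) in stimulated Th2 cells. The study counted many more affected genes, and more in differentiated than in Naive cells, so this is not a repeat of its own test. At an adjusted p below 0.05 the counts were also 0, where 0.106%, 0.0288%, 0.0384% and 0.0288% of all genes were called. At an unadjusted p below 0.05, limma gave 3 of these genes in resting Naive, 1 in stimulated Naive, 1 in resting Th2 and 0 in stimulated Th2 cells. The share of all genes at this unadjusted threshold was not counted, so no excess among these genes is claimed. Averaged over the 4 states 0 were called (0.374% of all genes), with 1 at an unadjusted p below 0.05, and the median difference was -0.07 against 0.00 over all genes. The averages and their intervals treat all arrays of a genotype as independent, although arrays of one letter may come from one mouse. With each genotype and letter taken as one mouse, the estimated correlation of its arrays was 0.041. The 25 differences lay between -0.83 and 0.67 in resting Naive, -0.63 and 0.42 in stimulated Naive, -0.54 and 0.84 in resting Th2, and -0.32 and 0.35 in stimulated Th2 cells. The median half-width of their 95% intervals was 0.58 within a state and 0.29 for the average.

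Hk2 had the largest average difference, 0.36 higher in KO cells (95% interval 0.04 to 0.67, adjusted p = 0.546 by limma). In resting Th2 cells all 3 KO arrays (9.21, 9.28 and 9.52) stood above all 3 WT arrays (8.67, 8.74 and 8.09), a difference of 0.84 (95% interval 0.21 to 1.47, adjusted p = 1.00 by limma). In stimulated Naive (0.07) and stimulated Th2 cells (0.05) the groups overlapped. Eno3 averaged -0.31, with KO levels of 5.95, 5.90 and 5.09 against WT levels of 6.64, 6.29 and 5.87 in stimulated Naive cells, where the groups just overlapped (-0.62, 95% interval -1.24 to -0.00). Its 95% interval over the 4 states was -0.62 to 0.00.

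Aldoa averaged -0.26 (95% interval -0.67 to 0.16). In resting Th2 cells it read 9.96, 9.30 and 10.42 in KO against 10.02, 10.50 and 10.77 in WT cells, with overlap. Pkm2 averaged 0.25 (95% interval -0.11 to 0.60) and read 10.03, 10.33 and 9.18 in KO against 9.26, 10.01 and 8.95 in WT resting Naive cells, again with overlap. In resting Naive cells the genes with an unadjusted p below 0.05 were Pdk1, Pdk3 and Hk3. Pdk1 gave -0.83, with 6.46, 6.68 and 6.53 in KO below 7.23, 7.77 and 7.17 in WT cells (95% interval -1.49 to -0.18, adjusted p = 0.594 by limma). Pdk3 gave 0.67 and Hk3 -0.47, with overlapping groups, and Hk3 is the gene that went with the myeloid markers. When 1 resting Naive array was left out, 1 gene passed the 4 criteria in 4 of the 6 cases: Hk3 without KO B (-0.74, adjusted p = 0.123) or without WT B (-0.71, 0.171), Hk2 without KO C (0.89, 0.283) and Pdk3 without WT C (0.96, 0.188).

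The response to a change of state did not differ detectably between the genotypes. Tests of the difference of responses called 0 of 25 genes for stimulation of Naive cells, for stimulation of Th2 cells and for resting Th2 against resting Naive cells. Over all genes limma called 0.0096%, 0% and 0.0096%. By limma, 2, 0 and 1 of the 25 genes had an unadjusted p below 0.05, a threshold at which the share of all genes was not counted. The largest differences of response were in Naive cells, -1.18 for Hif1a (95% interval -2.21 to -0.14) and 1.07 for Pdk1 (95% interval 0.14 to 2.01). Intervals of a difference of responses had a median half-width of 0.82. The larger differences of Hif1a and Pdk1 were not called either. With 3 arrays per group, differences of response between genotypes beyond 0.82 are therefore not excluded.

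**Figure D4:**
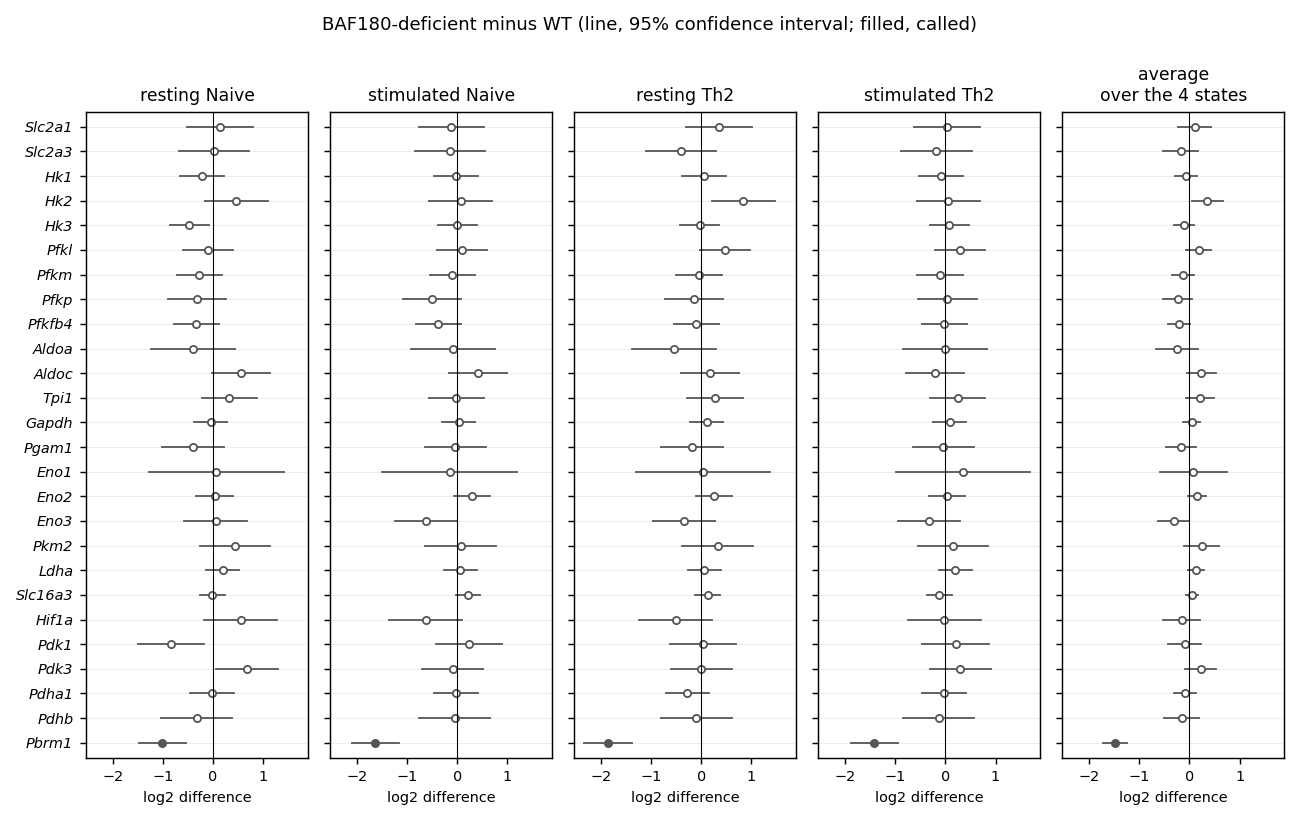
BAF180-deficient minus WT log2 difference with its 95% confidence interval (horizontal axis) for the 25 tested genes and for Pbrm1 in each cell state and averaged over the 4 states, filled where called. Only Pbrm1 is filled, at -1.01 to -1.86 in the single states, and the glycolysis genes lie between -0.83 and 0.84.

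Neighbouring pathways gave a context for these changes, from lists of genes chosen by function. On stimulation of WT Naive cells, where 23.3% of all genes were called higher and 21.9% lower, the tricarboxylic acid cycle had 12 of 18 tested genes higher and 0 lower, led by Fh1 (1.40), Sdhd (1.22) and Suclg1 (1.06). Its median difference was 0.63 in WT and 0.43 in KO cells, against -0.01 over all genes in each. The pentose phosphate pathway, which branches off after hexokinase, had 5 of 8 higher and 2 lower, led by Prps1 (1.37) and its dehydrogenases Pgd (1.24) and G6pdx (0.94). Of 13 tested isozymes and side branches 5 were higher and 0 lower, and the largest were the serine synthesis genes Psat1 (3.93) and Phgdh (2.38). Known HIF targets and regulators had 3 of 16 higher and 2 lower, fewer in each direction than the share over all genes, and Vegfa (2.24) and Egln3 (2.09) rose while Bnip3l fell (-1.11). Of 14 regulators of glucose use in T cells 4 were higher and 2 lower, among them Txnip (-5.32), an inhibitor of glucose uptake, and the activation factors Irf4 (3.12) and Batf (1.79). Of 5 other genes of the pyruvate dehydrogenase step 2 were higher, Pdp2 (0.90) and Dlat (0.77), and 0 lower. KO cells, where 22.1% of all genes were higher and 21.3% lower, had 7 of 18 higher and 0 lower in the tricarboxylic acid cycle, 4 and 1 in the pentose phosphate pathway, 4 and 0 in the side branches, 2 and 2 in the HIF list, 4 and 3 among the regulators and 2 and 0 at the pyruvate dehydrogenase step.

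In stimulated against resting WT Th2 cells, where 12.5% of all genes were higher and 15.9% lower, the lists gave 1 higher and 2 lower of the pentose phosphate pathway, 2 and 3 of the tricarboxylic acid cycle, 3 and 2 of the side branches, 3 and 4 of the HIF list, 3 and 2 of the regulators and 1 and 0 of the pyruvate dehydrogenase step. KO cells gave 1 and 1, 2 and 1, 4 and 2, 3 and 4, 3 and 2, and 2 and 0 in the same order, where 11.7% of all genes were higher and 15.4% lower. In WT cells Txnip fell again (-4.04), Irf4 (2.17) and Myc (2.13) rose, and of the HIF list Ddit4 (-2.90) and Bnip3l (-2.01) fell and Egln3 (2.00) rose.

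In resting WT Th2 against resting Naive cells, where 17.9% of all genes were higher and 17.6% lower, the HIF list had 7 of 16 genes higher and 0 lower, led by Egln3 (3.01), Ndrg1 (1.98) and Vegfa (1.29). The tricarboxylic acid cycle had 7 higher and 3 lower there, the pentose phosphate pathway 4 and 0, the side branches 4 and 1, the regulators 3 and 5 and the pyruvate dehydrogenase step 0 and 0. KO cells gave 9 and 1 for the HIF list, 6 and 3, 3 and 0, 2 and 2, 3 and 3, and 0 and 0 for the others, where 18.2% of all genes were higher and 17.5% lower. Against stimulated Naive cells, resting Th2 cells had 6 HIF list genes higher and 0 lower in WT and 7 and 0 in KO cells, where 11.4% and 10.9% of all genes were higher. In WT cells these included Ddit4 (1.77), Ndrg1 (1.45) and Bnip3l (0.98), while Txnip was higher (3.39) and Irf4 lower (-1.85). Between genotypes no gene of these lists was called in any single state, and the only one called in the average over the states was Sdhc (0.41, adjusted p = 0.0471).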

How the data were processed

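RNA of 24 samples (8 groups of 3) was hybridised to Illumina mouse arrays. The deposited table holds, per probe and sample, an intensity and a detection p-value that the authors exported from GenomeStudio (1.6.0 in the submitters' processing notes, another release in the study's methods). The intensity was neither background-corrected nor Z-scored, and the precision is limited by 3 arrays a group. The intensities were corrected by normexp with a background taken from the detection p-values (offset 16), quantile normalized and put on the log2 scale with limma 3.58.1 in R 4.3.3 (neqc). Of 25697 probes, 14246 had a detection p-value of 0.02 or less on 1 array or more and were tested. Group means were fitted to all 24 arrays by lmFit and eBayes (16 residual degrees of freedom), with Benjamini-Hochberg adjustment over all kept probes. Members named in full were the 4 largest called differences of each WT state comparison and the 4 largest average genotype differences, with the other called members given by their difference. Other lists were named by their 3 largest calls at most. The members and lists were chosen with earlier results of these data known. Scripts were tested on simulated data. Isozyme pairs were tested with Python 3.11.15 and exact permutations. Whether the letters pair WT and KO samples was checked by correlating deviations from group means: 0.301 for A, 0.136 for B and 0.516 for C over the 4 states, so they were read as pairs in an alternative fit, with 2 of 12 values within states at or below 0.1. Alternatives were Z-scores as in the study's methods, median scaling, no background correction, 2 other detection filters, the mean of a gene's probes, no moderation, the block, fits within a state, and each array left out. Promoter windows came from RefSeq, and no genome was used.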

Additional observations from a re-analysis of the deposited data

Results flagged for a closer look

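Groups of 3 arrays are too small to test for a single outlying array. Opposite movement in all samples picked out 7 results, each given as the first difference minus the second. The rule was run on the 25 tested genes only, so the share of all genes that meets it is not known. The 7 were picked out because every replicate letter of one group moved up and every one of the other moved down, with the letters read as pairs, as in the fit with the replicate block. Deviations from group means of resting and stimulated arrays of one letter and genotype correlated at -0.009 to 0.165 in Naive cells. In Th2 cells they correlated at 0.023 to 0.427. The letters therefore gave little sign of pairing resting with stimulated Naive arrays.

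4 glycolytic enzymes moved up in all 6 letter pairs on stimulation of Naive cells and down in all 6 on stimulation of Th2 cells. Tpi1 averaged 3.10 in Naive and -0.65 in Th2 cells, a gap of 3.76. The gap was 2.16 for Eno1 (1.54 and -0.62), 1.94 for Gapdh (1.70 and -0.24) and 1.90 for Ldha (1.53 and -0.37). These differences between the 2 stimulations were not tested. The Naive cells had 24 h of anti-CD3 and anti-CD28 and the Th2 cells 1.5 h of PMA and ionomycin, so cell type, agent and duration cannot be told apart. Of the falls in Th2 cells only that of Ldha in WT cells passed the test.

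The KO minus WT difference had opposite signs in all 3 letters for Hif1a and Pdk1. Hif1a was 0.55 in resting Naive and -0.51 in resting Th2 cells, a gap of 1.06, for which the test of the difference of responses gave an adjusted p of 1.00 by limma. Hif1a was not detected on 2 of the 6 resting Naive arrays. Pdk1 was -0.83 in resting Naive cells against 0.24 in stimulated Naive cells (gap -1.07, adjusted p = 1.00 by limma) and 0.20 in stimulated Th2 cells (gap -1.04, not tested). No single-state genotype difference of either gene was called.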

How the results depend on the processing

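No call of a named gene or pair changed direction under any alternative run. Differences not called in the main fit, among them those of the 25 genes between genotypes, were not followed through all alternatives. Calls of named genes and pairs that an alternative ended are given beside the result. Counts of called members changed by more than 1.5 times in these cases. Median scaling gave 8 calls (2 higher, 6 lower) in place of 5 for WT resting Th2 against stimulated Naive cells. For KO stimulated against resting Th2 cells, 3 calls in place of 5 were left with no detection filter and 3 with no moderation. Leaving out 1 array gave 15 to 16 calls (17 with all arrays) for WT and 13 to 17 (15) for KO stimulated against resting Naive cells, 4 to 7 (7) and 3 to 6 (5) for stimulated against resting Th2 cells, 14 to 15 (14) and 15 to 18 (20) for resting Th2 against resting Naive cells, and 3 to 5 (5) and 3 to 5 (6) for resting Th2 against stimulated Naive cells. The lowest WT counts came without WT stimulated Th2 A (4) and WT stimulated Naive B (3), and the lowest KO counts without KO stimulated Th2 A or C, KO resting Th2 A or B, and KO stimulated Naive C (3 each). Between genotypes it gave 0 to 1 in resting Naive cells and 0 to 0 in every other state, in the average and in the differences of responses. With the replicate block the counts were 17 and 18, 9 and 6, 17 and 21, and 6 and 5 for WT and KO in the same order, and 0 between genotypes in each state. The blocked p-values that changed a call stand beside it, and the block changed no other call of a named gene. The targeted gene Pbrm1 lost its calls in resting Naive, stimulated Naive and stimulated Th2 cells when only the 6 arrays of a state were fitted (adjusted p = 1.00, 1.00 and 0.746) or normalized (0.952, 1.00 and 0.787), so those settings had little power for any gene. In resting Naive cells it also lost its call at an adjusted p below 0.05 in place of the 4 criteria (adjusted p = 0.121), with median scaling (-0.85) and without KO B (-0.89).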
